A study of Mus musculus with 17 samples.

Results

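Lyz1, Mmp7, Ang4, Itln1, Mptx1 and Mptx2 are 6 secreted products of the mouse Paneth cell that are not defensins, and they were followed across 6 groups of nursing dam and age. They were taken by name from the 53278 gene symbols of the deposited table. All 6 were among the 15066 genes that had a value of 1 or more TPM, a read share corrected for transcript length, in 2 or more libraries and were tested.

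The 17 libraries came from sorted EpCAM+ CD45- Ter119- epithelial cells of the small intestine of Igha -/+ mice of the C57BL/6 strain. Every mouse, in all groups, therefore carried 1 intact and 1 inactivated copy of the IgA heavy chain gene. The pups were nursed by a C57BL/6 dam (B6 dam, the control group) or by an IgA -/- dam (no maternal IgA), were kept free of specific pathogens, and were sampled on day of life 14, 24 or 42. There were 3 libraries in each group but 2 for the B6 dam at day 24. The labels do not tie libraries to litters or dams, so p-values speak only of the spread among these libraries, part of which may be technical. At days 14 and 24 the library names carry other dates for one dam than for the other, so dam and date cannot be told apart there; at day 42 the dates were the same. Under each dam the ages carry different dates too, so age and date cannot be told apart either; the one exception is the IgA -/- dam, whose day 24 and day 42 libraries share a date. Every library name begins with F for the IgA -/- dam and with M for the B6 dam, letters the labels do not explain, and what they stand for cannot be told apart from the dam at any age.

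Paneth cells sit at the base of the small-intestinal crypts and release granules of antimicrobial proteins into the crypt lumen. In mice they appear and multiply in the weeks after birth, while the pup passes from milk to solid food. Lyz1 is the Paneth cell lysozyme, which cuts the peptidoglycan of bacterial walls, and Mmp7 is matrilysin, the protease that cuts mouse pro-alpha-defensins into their active form. Ang4 is a ribonuclease of the angiogenin family with bactericidal activity, and Itln1 is an intelectin, a lectin that binds sugars of microbial surfaces; both are also known from goblet cells. Mptx1 and Mptx2 are mucosal pentraxins, relatives of C-reactive protein and serum amyloid P.

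On the GRCm38 assembly (mm10), the GENCODE M21 annotation places Lyz1 on the minus strand of chromosome 10 (117287797 to 117292868), Mmp7 on the plus strand of chromosome 9 (7692090 to 7699585) and Ang4 on the minus strand of chromosome 14 (51763878 to 51773590). The other 3 lie on chromosome 1, Itln1 at 171518122 to 171535294 on the minus strand, Mptx2 at 173274382 to 173277777 on the minus strand and Mptx1 at 174330518 to 174332873 on the plus strand. Below are the bases just before the start of 4 members, from RefSeq (GRCm38.p6), 5′ to 3′ on the gene's strand. They show the pair of genes most alike in level over the libraries (Lyz1 and Itln1) and the pair most alike in sequence (Mptx1 and Mptx2). The stretches are chr10:117292869-117293118 (minus strand), chr1:171535295-171535544 (minus), chr1:174330268-174330517 (plus) and chr1:173277778-173278006 (minus); each is 250 bases, except that of Mptx2, printed as 229 bases because its last 21 lie inside the GENCODE gene. Capitals mark CTTTGA, the core of TCF/LEF sites, and TTTAT, the core of CDX sites, on either strand.
Lyz1: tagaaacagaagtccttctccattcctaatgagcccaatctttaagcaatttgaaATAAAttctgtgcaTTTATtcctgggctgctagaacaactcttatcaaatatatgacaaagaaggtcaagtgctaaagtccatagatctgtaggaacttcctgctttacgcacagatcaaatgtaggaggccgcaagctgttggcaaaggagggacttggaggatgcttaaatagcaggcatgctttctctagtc
Itln1: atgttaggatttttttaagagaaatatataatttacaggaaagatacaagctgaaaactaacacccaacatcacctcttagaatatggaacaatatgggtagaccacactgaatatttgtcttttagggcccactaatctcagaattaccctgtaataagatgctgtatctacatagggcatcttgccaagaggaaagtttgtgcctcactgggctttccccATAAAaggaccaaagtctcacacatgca
Mptx1: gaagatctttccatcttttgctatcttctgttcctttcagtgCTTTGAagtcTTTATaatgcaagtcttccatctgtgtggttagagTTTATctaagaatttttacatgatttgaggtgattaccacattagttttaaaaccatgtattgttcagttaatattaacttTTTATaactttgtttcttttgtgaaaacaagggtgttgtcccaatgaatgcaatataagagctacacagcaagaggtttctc
Mptx2: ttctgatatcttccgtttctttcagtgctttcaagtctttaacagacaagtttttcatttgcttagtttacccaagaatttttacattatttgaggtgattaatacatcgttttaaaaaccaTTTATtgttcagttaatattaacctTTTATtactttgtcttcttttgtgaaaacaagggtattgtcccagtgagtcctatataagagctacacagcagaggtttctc
Over the 250 bases the Mptx1 and Mptx2 stretches were identical in 74.0% of aligned columns, whereas Lyz1 and Itln1 were identical in 48.3%, and the other pairs of members lay between 48.2% and 52.4%. CTTTGA was found in Mptx1 alone of the 6 members and in 13.8% of all 32851 promoter windows of that length. The aligned bases of Mptx2 differ from this match by G47C, given as the Mptx1 base, its position counted from 1 at the first printed base of Mptx1, and the Mptx2 base. TTTAT occurred in 5 of the 6 members, Ang4 being the exception, and in 37.3% of the windows; on the other strand it reads ATAAA, which TATA boxes can also hold. ACAAT, the core of SOX sites, occurred in 4 of the 6 members and in 27.7% of the windows, and the E-box CAGCTG in 0 of the 6 and in 13.0%.

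From the TPM, 8482355 to 18317895 whole reads per library were recovered, as described with the processing. Gm23935, annotated as a miRNA gene, took 40.2% to 61.9% of the TPM of a library, and the TPM of most genes moved together between some groups, so results are given for the TPM as deposited and scaled, that is, divided by size factors from the median of ratios (0.477 to 1.83). The factors of the IgA -/- dam libraries were 0.477, 0.540 and 0.717 at day 24. Those at day 14 were the highest of all (1.40, 1.64 and 1.83). The B6 dam libraries at day 24 had factors of 1.08 and 0.671. The epithelial genes Epcam and Vil1 were at 153 to 500 and 88.1 to 289 TPM, and the leukocyte gene Ptprc at or under 0.806 TPM. The macrophage gene Csf1r reached 1.40 to 7.62 TPM with the B6 dam at day 14, against at most 0.787 TPM in all other libraries. Although cells with Ter119 were sorted out, 6 erythroid genes summed to 36.3 TPM in replicate 2 of the IgA -/- dam at day 24, with 5 of 6 at 1 TPM or more, and to at most 2.68 TPM in all other libraries. Lyz2, the macrophage lysozyme that shares 16.1% of the 50-base stretches of Lyz1, was at most 0.703 TPM and at 0 in 4 libraries. In such bulk samples, fewer Paneth cells and less RNA per Paneth cell cannot be told apart. Replicate 1 of the B6 dam at day 42 stood apart, with a summed defensin level of 8064 TPM against 613 and 2049 TPM in the other libraries of its group; the tests of day 42 and the group means are also given without it.

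**Figure D1:**
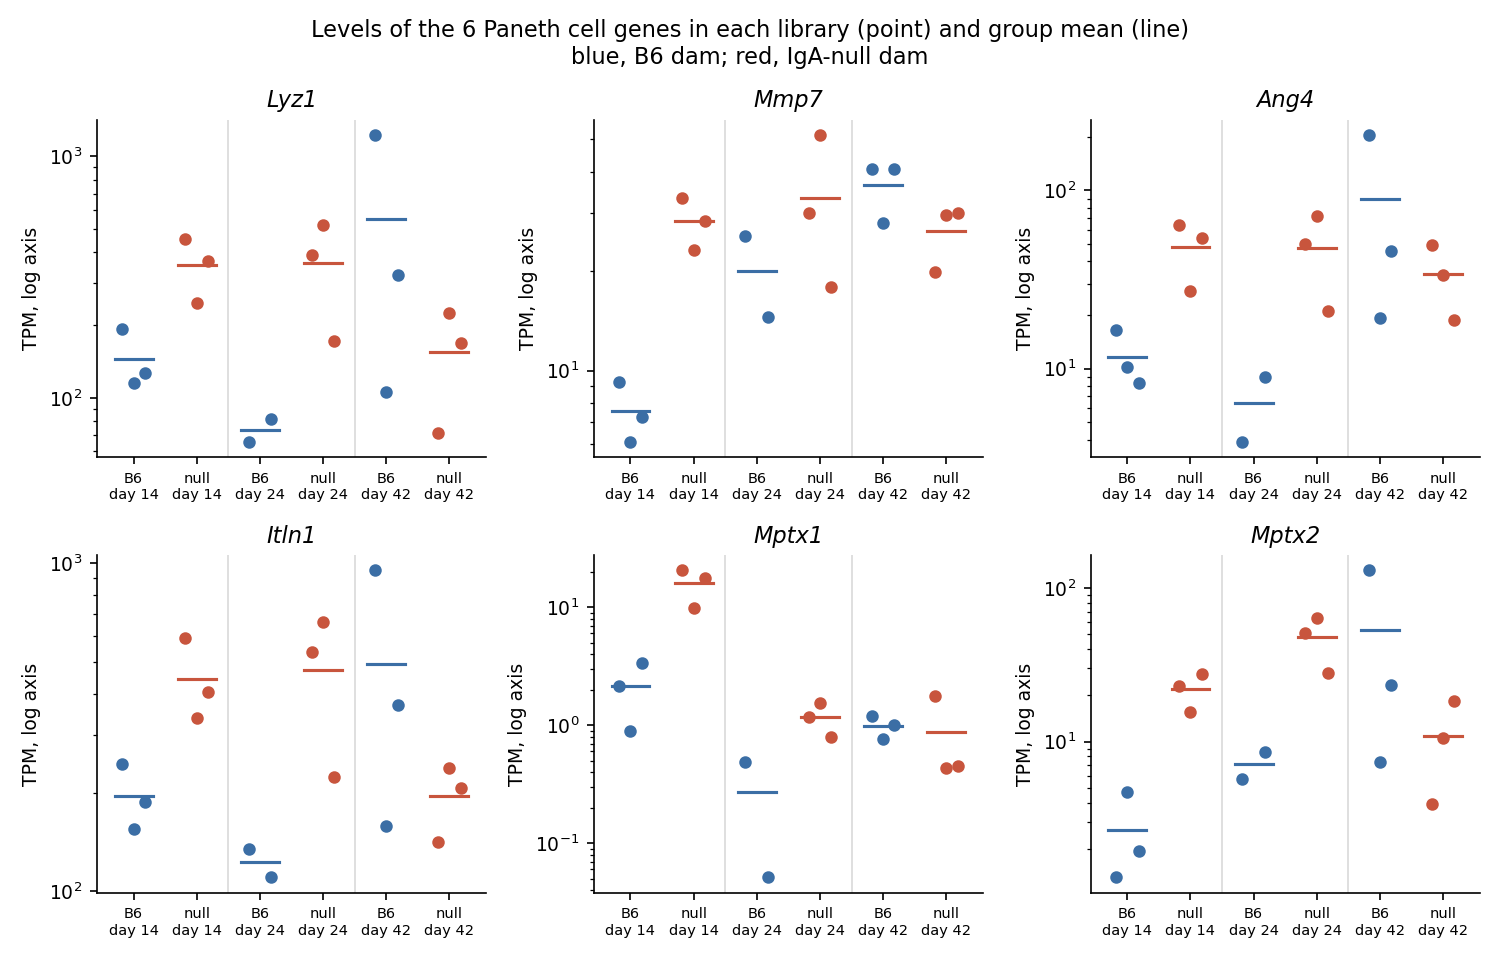
TPM of each of the 6 genes (y axes, log scale, one panel per gene) in each library (points) and group mean (lines), by nursing dam (the IgA -/- dam is marked as IgA-null or null in the plots) and day of life. At day 14 every IgA -/- dam library lies above every B6 dam library in all 6 panels; at day 42 the groups overlap in all 6, and B6 dam replicate 1 lies far above its group in Lyz1 (1224 TPM) and Itln1 (952 TPM).

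At day 14, all 6 genes were higher in pups of the IgA -/- dam, with no overlap between the groups in either scaling. How many of all tested genes were apart in this way was not counted. The protease Mmp7 and the pentraxins Mptx1 and Mptx2 passed the test as deposited, and Mmp7 and Mptx1 also passed it scaled. The lysozyme, the ribonuclease and the intelectin did not pass. The comparison asks what nursing without maternal IgA changes in the suckling epithelium.

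Mptx1 had 2.15, 0.892 and 3.35 TPM in B6 dam pups at day 14 and 20.5, 9.91 and 17.6 TPM in IgA -/- dam pups. The lowest IgA -/- dam library was well above the highest B6 dam library. The log2 fold change of TPM + 1 was 2.46 ± 0.32 (SE; limma adjusted p = 0.0012), or 5.52-fold, and 1.97 scaled (adjusted p = 0.0068). Mptx2 stood at 1.30, 4.71 and 1.94 TPM against 22.99, 15.6 and 27.7 TPM. Its groups were also apart, with a log2 fold change of 2.74 ± 0.72 (adjusted p = 0.030), but the scaled change of 2.24 did not pass (adjusted p = 0.16). Mmp7 rose from 9.26, 6.09 and 7.27 TPM to 33.2, 23.2 and 28.3 TPM, a log2 fold change of 1.78 ± 0.32 (adjusted p = 0.0057) and 1.32 scaled (adjusted p = 0.046). The B6 dam group at day 14 had the lowest Mmp7 of the 6 groups, apart from all libraries of the next group.

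Lyz1 had 193, 115 and 127 TPM in B6 dam pups at day 14 and 455, 246 and 367 TPM in IgA -/- dam pups. The groups did not overlap, but the log2 fold change of 1.28 ± 0.66 did not pass (limma adjusted p = 0.18). Itln1 stood at 245, 155 and 187 TPM against 593, 337 and 406 TPM, likewise apart, with a log2 fold change of 1.17 ± 0.51 (adjusted p = 0.13). Ang4 stood at 16.6, 10.2 and 8.30 TPM against 64.4, 27.2 and 53.8 TPM, with a log2 fold change of 1.93 ± 0.66 (adjusted p = 0.073).

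Of the 6 members, 3 were called higher as deposited, where 8.32% of all tested genes were, and 2 scaled, where 1.79% of all tested genes were. The median log2 fold change of the 6 was 1.85 as deposited and 1.39 scaled, against 0.33 and -0.01 over all tested genes. Mmp7 and Mptx1 stayed called without any 1 of the 6 libraries as deposited (adjusted p up to 0.030 and 0.0075). After scaling Mptx1 again kept its call each time (adjusted p up to 0.035), whereas Mmp7 lost it each time (adjusted p = 0.081 to 0.16). Mptx2 as deposited lost its call when replicate 1 or 3 of the B6 dam was left out (adjusted p = 0.12 and 0.075), and likewise for replicate 1 or 3 of the IgA -/- dam (0.082 and 0.11).

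Of 10 other Paneth cell genes, the defensins tested, 1 was called higher at day 14 as deposited and 0 scaled, with a median log2 fold change of 1.34 and 0.89 and all 10 estimates above 0 in both scalings. The one called was the alpha-defensin gene Defa20, at 14.7 ± 4.86 TPM (SD, n = 3) against 113 ± 42.1 TPM (log2 fold change 2.84, limma adjusted p = 0.044; scaled 2.37, adjusted p = 0.17). Of 19 Paneth fate and granule genes, 8 were called higher as deposited and 0 scaled, among them the secreted phospholipase Pla2g2a (1.45, adjusted p = 0.0069) and the secretory transcription factor Bhlha15 (1.00, adjusted p = 0.018). Among family relatives of the members, 1 of 6 was called, the pancreatic-type ribonuclease Rnase1 (0.92, adjusted p = 0.039; scaled 0.47, adjusted p = 0.27). Markers of goblet cells moved with these genes: 11 of 12 were called higher (8 scaled), with a median of 2.16 (1.70 scaled) and a summed level of 540 to 822 TPM with the B6 dam and 2182 to 4018 TPM with the IgA -/- dam. Enteroendocrine markers were called higher in 11 of 12 in both scalings. The part of these cell types in the levels of the 6 genes was not tested.

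**Figure D2:**
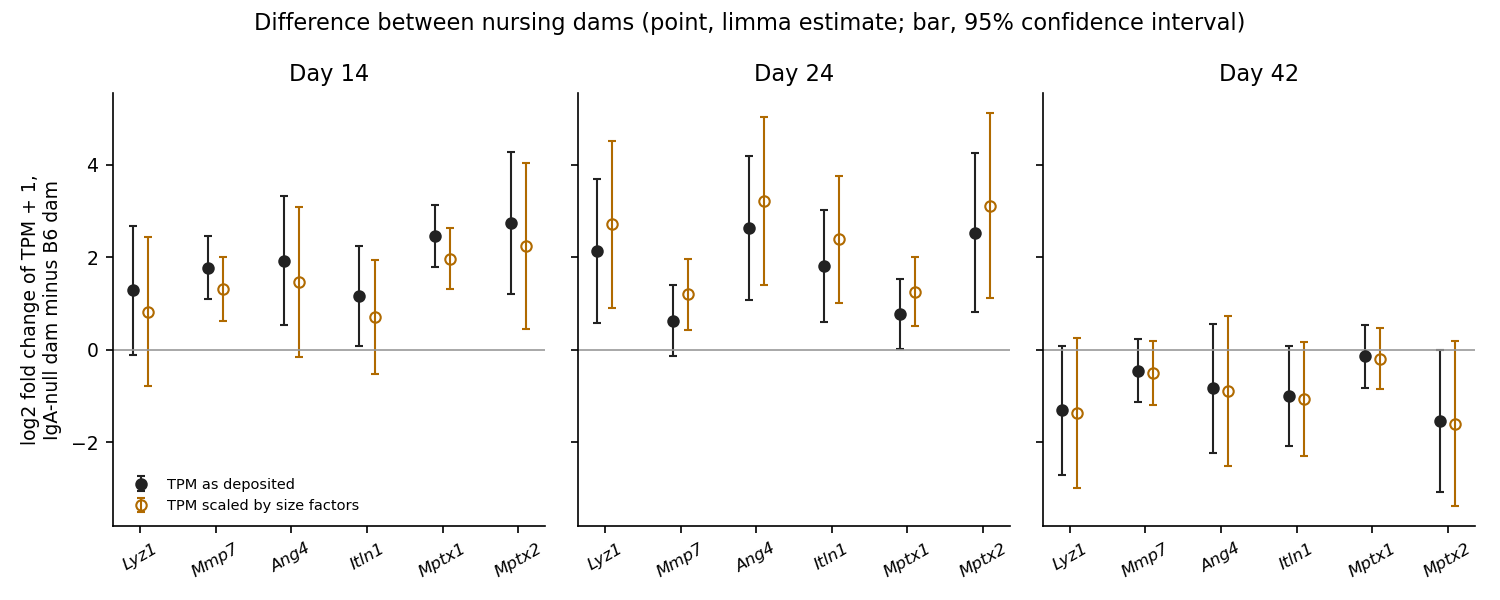
Log2 fold change of TPM + 1 between the dams (IgA -/- dam minus B6 dam; y axis) for each gene (x axis) at days 14, 24 and 42, with the limma estimate (points) and its 95% confidence interval (bars), as deposited and scaled. All estimates are above 0 at days 14 and 24 and below 0 at day 42. Bars of the scaled estimates take their t quantile from the as-deposited fit and are slightly narrower than 95% intervals.

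At day 24, around weaning, the 6 genes were again higher with the IgA -/- dam in all estimates, by 0.63 to 2.64 on the log2 scale, but none passed the test. The largest differences were those of Ang4, Mptx2 and Lyz1, and the smallest was that of Mmp7. The B6 dam group held 2 libraries.

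Ang4 had 3.88 and 8.98 TPM in B6 dam pups at day 24 and 49.8, 71.6 and 21.2 TPM in IgA -/- dam pups (log2 fold change 2.64 ± 0.74; limma adjusted p = 0.068). Mptx2 stood at 5.72 and 8.53 TPM against 51.2, 64.5 and 28.2 TPM (2.54 ± 0.81; adjusted p = 0.076). Lyz1 stood at 65.6 and 81.9 TPM against 391, 518 and 171 TPM (2.14 ± 0.74; adjusted p = 0.088). In these 3 genes, and in Itln1 (135 and 110 against 536, 665 and 223 TPM; adjusted p = 0.075), the groups were apart. Mptx1 was low in both groups, at 0.492 and 0.0514 TPM against 1.17, 1.54 and 0.789 TPM, and rested on 1 to 20 reads per library. Mmp7 stood at 25.5 and 14.6 TPM against 30.05, 51.6 and 17.9 TPM, and its groups overlapped as deposited (0.63 ± 0.36) but not scaled (1.20).

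Thus 5 of the 6 genes were apart between the dams as deposited and 6 scaled, while limma called 0 of the 6 in either scaling. How many of all tested genes were apart was not counted. An unadjusted p under 0.05 was reached by 5 members as deposited and 6 scaled, beside 4659 and 1520 of the 15066 tested genes. Limma-voom on the recovered reads also called 0. Over all tested genes 0.0265% were called as deposited and 0% scaled. The members' median log2 fold change was 1.97 as deposited and 2.55 scaled, against -0.38 and -0.03 over all tested genes. Without B6 dam replicate 2, which leaves 1 library in that group, the change of Ang4 was 3.15 as deposited. With only genes of at least 5 TPM tested, Ang4, Itln1 and Mptx2 passed (adjusted p = 0.042, 0.047 and 0.046), as did 12.2% of the 7436 genes then tested. Replicate 2 of the IgA -/- dam, the library with the erythroid genes, was the highest for all 6 members, and without it the differences were 0.26 to 2.29 as deposited, again with 0 called.

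The 10 tested defensins had a median of 1.86 at day 24 (2.41 scaled), with 0 called; Defa30, the largest, stood at 58.7 ± 21.2 TPM (SD, n = 2) against 345 ± 169 TPM (n = 3; log2 fold change 2.44, limma adjusted p = 0.090). The 19 Paneth fate and granule genes had a median of -0.26 (0.09 scaled), with 0 called. Of these, Habp2, a hyaluronan-binding serine protease, had the smallest p (1.02, adjusted p = 0.069). Markers of goblet cells had a median of -0.03 (0.54 scaled) and summed to 1256 to 1513 TPM with the B6 dam and 776 to 1856 TPM with the IgA -/- dam, and those of enteroendocrine cells had a median of -1.86 (-1.35 scaled).

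At day 42 the order of the means was turned: all 6 genes had a lower mean with the IgA -/- dam, but the groups overlapped in every gene and limma called 0 of the 6 in either scaling. Of the 6, 1 had an unadjusted p under 0.05 as deposited and 0 scaled, beside 174 and 243 of the 15066 tested genes. Limma-voom called 0, and 0% of all tested genes were called in either scaling. Lyz1 had 1224, 106 and 323 TPM in B6 dam pups and 71.6, 225 and 169 TPM in IgA -/- dam pups (log2 fold change -1.31 ± 0.66; adjusted p = 1). Mptx2 stood at 131, 7.33 and 23.3 TPM against 3.88, 10.47 and 18.3 TPM (-1.54 ± 0.72). In both, B6 dam replicate 1 was the highest library, and without it the change was -0.41 for Lyz1 and -0.47 for Mptx2. Ang4 (205, 19.4 and 45.8 against 49.6, 33.5 and 18.7 TPM) went from -0.84 to 0.08, and Itln1 (952, 158 and 371 against 141, 237 and 206 TPM) from -1.002 to -0.34. Mmp7 was even across its libraries at this age, at 40.8, 28.0 and 40.7 TPM against 19.9, 29.5 and 29.9 TPM (-0.45 ± 0.32, and -0.36 without that library). Mptx1 stood at 1.20, 0.760 and 1.00 TPM against 1.76, 0.434 and 0.452 TPM (-0.14 ± 0.32, and -0.07 without B6 dam replicate 1).

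Whether the difference between dams itself changed with age was tested with a moderated F test over the 3 ages. Mptx1 (F = 17.03, limma adjusted p = 0.031) and Mmp7 (F = 11.9, adjusted p = 0.047) passed as deposited, with dam differences of 2.46, 0.78 and -0.14 for Mptx1 at days 14, 24 and 42, and of 1.78, 0.63 and -0.45 for Mmp7. The day 24 value of Mptx1, at a low level, moved with the constant added before the logarithm: with 0.1 in place of 1 it was 2.04, against 2.96 at day 14 (F test adjusted p = 0.065), and limma-voom gave 3.03 against 2.50 (adjusted p = 0.15). The share of all tested genes called was 1.75%. Mptx2 (adjusted p = 0.053), Itln1 (0.067), Ang4 (0.068) and Lyz1 (0.071) did not pass. Scaled, limma called 0 of the 6 (adjusted p = 0.13 to 0.33) and 0.139% of all tested genes. All 6 had an unadjusted p under 0.05 in both scalings, beside 6075 of the 15066 tested genes as deposited and 1534 scaled. Limma-voom called 0. Single libraries moved this count. Leaving out 1 library where 2 or more stayed in each group gave 0 to 5 called members as deposited and 0 to 1 scaled. Over all 17 fits without 1 library, Mptx1 was called in 9 as deposited and Mmp7 in 6. Without B6 dam day 42 replicate 1 there were 3, Mptx1, Mptx2 and Mmp7, beside 10.8% of all tested genes. Leaving out either library of the B6 dam at day 24 leaves 1 in that group. Those fits are not part of the range of 0 to 5, but the counts over all 17 fits include them. Leaving out replicate 1 of the IgA -/- dam at day 24 gave 5, beside 26.1% of all tested genes. None was called without replicate 1 or 2 of the B6 dam or 1 or 3 of the IgA -/- dam at day 14. The same held without replicate 2 or 3 of the IgA -/- dam at day 42. In these fits 0.0597% to 0.624% of all tested genes were called.

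**Figure D3:**
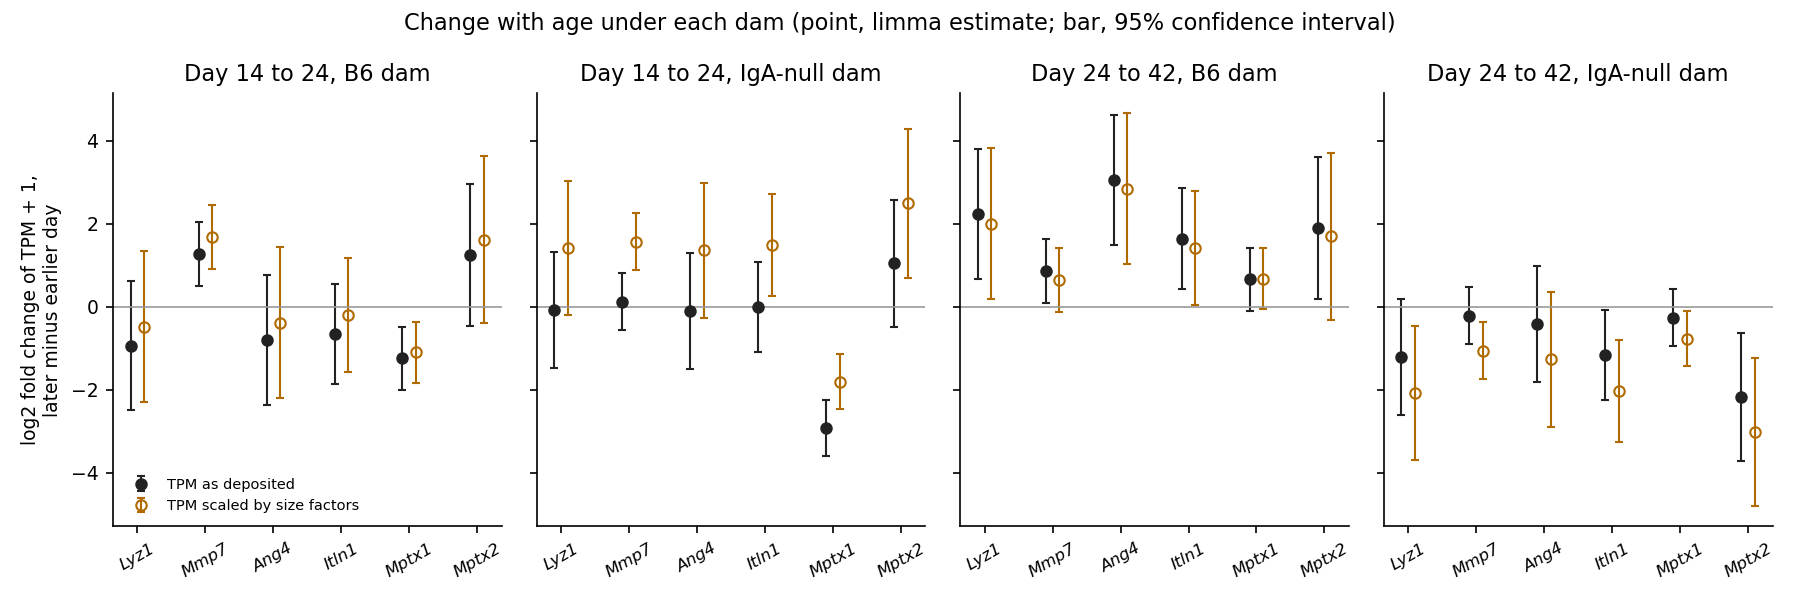
Log2 fold change of TPM + 1 between adjacent ages (later minus earlier day; y axis) for each gene (x axis) under each dam, with the limma estimate (points) and its 95% confidence interval (bars), as deposited and scaled. From day 14 to 24 the estimates of Mptx1 are below 0 and those of Mptx2 above 0 under both dams. From day 24 to 42 all 6 genes are above 0 with the B6 dam and below 0 with the IgA -/- dam. Bars of the scaled estimates take their t quantile from the as-deposited fit and are slightly narrower than 95% intervals.

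From day 14 to 24 under the B6 dam, Mmp7 rose and Mptx1 fell, while the other 4 genes did not pass. Markers of other secretory cells were called higher beside Mmp7, 2 of 12 for goblet, 5 of 12 for enteroendocrine and 3 of 7 for tuft cells as deposited and 8, 10 and 6 scaled; their part in the rise of Mmp7 was not tested. Mmp7 went from 7.54 ± 1.60 TPM (SD, n = 3) to 25.5 and 14.6 TPM, a log2 fold change of 1.27 ± 0.36 (limma adjusted p = 0.039) and of 1.68 scaled (adjusted p = 0.0081). Mptx1 went from 2.13 ± 1.23 TPM to 0.492 and 0.0514 TPM (-1.24 ± 0.36, adjusted p = 0.041; scaled -1.10, adjusted p = 0.052). Both were apart between the ages. The 2 called members stand against 8.61% of all tested genes called as deposited, and the 1 scaled against 13.8%. As deposited, Mmp7 lost its call without any 1 of the 5 libraries (adjusted p = 0.054 to 0.13) and kept it each time after scaling (adjusted p = 0.013 to 0.047). Mptx1 lost its call without B6 dam day 14 replicate 1 or 3 or day 24 replicate 2 (adjusted p = 0.099, 0.14 and 0.36). Lyz1 (-0.94), Itln1 (-0.65) and Ang4 (-0.81) were lower at day 24 and Mptx2 higher (1.24), with adjusted p of 0.32 to 0.48. The defensins had a median of -1.47 (-1.02 scaled) with 0 of 10 called, and 1 of 19 fate and granule genes was called, Habp2 (-1.01, adjusted p = 0.041; scaled -0.75, adjusted p = 0.15).

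Under the IgA -/- dam, Mptx1 fell from day 14 to 24 from 20.5, 9.91 and 17.6 TPM to 1.17, 1.54 and 0.789 TPM. This log2 fold change of -2.93 ± 0.32 (limma adjusted p = 9.0e-06) had the smallest adjusted p of the 6 genes; scaled it was -1.81 (adjusted p = 0.0023). It kept its call without any 1 of the 6 libraries in both scalings (adjusted p up to 0.00012 and 0.012). As deposited, 82.9% of all tested genes were called lower too, with a median of -1.02 over all genes. Scaled, where the median was -0.02 and 16.6% of all tested genes were called, Mptx1 was called lower and Mmp7 higher (1.56, adjusted p = 0.0070). Mmp7 kept the scaled call without any 1 library, but as deposited it did not pass (28.3 ± 4.99 against 33.2 ± 17.1 TPM; 0.12, adjusted p = 0.74). Lyz1, Ang4 and Itln1 changed sign with the scaling, from -0.08, -0.10 and -0.01 as deposited to 1.41, 1.36 and 1.49 scaled, and passed in neither (scaled adjusted p = 0.21, 0.23 and 0.093). Mptx2 was higher without overlap in both scalings (1.04 and 2.49), with adjusted p of 0.19 and 0.059. Of the 10 defensins, 2 were called lower as deposited and 0 scaled, with medians of -0.83 and 0.58. Of the 19 fate and granule genes 16 were called lower as deposited, and 3 higher scaled, with medians of -1.09 and 0.12.

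From day 24 to 42 under the B6 dam all 6 genes had a higher mean, by 0.66 to 3.06 on the log2 scale as deposited, and limma called 0 of the 6 in either scaling, with 0.0199% of all tested genes called as deposited and 0.0265% scaled. An unadjusted p under 0.05 was reached by 5 of the 6 as deposited and by 3 scaled, beside 565 and 1059 of the 15066 tested genes. Limma-voom called 0. Ang4 had the largest change, from 3.88 and 8.98 TPM to 205, 19.4 and 45.8 TPM (3.06 ± 0.74, adjusted p = 0.54), which was 2.15 without day 42 replicate 1. Without that library the change of Lyz1 went from 2.23 to 1.33 and that of Mptx2 from 1.90 to 0.83, while Itln1 went from 1.64 to 0.98, Mmp7 from 0.87 to 0.78 and Mptx1 from 0.66 to 0.58. The defensins had a median of 1.55 (1.34 scaled) with 0 of 10 called, and 0 of 19 fate and granule genes were called.

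Under the IgA -/- dam the 6 genes went the other way from day 24 to 42, with estimates from -0.22 to -2.18 as deposited and from -0.77 to -3.02 scaled. Mptx2 fell from 51.2, 64.5 and 28.2 TPM to 3.88, 10.47 and 18.3 TPM, with the groups apart (-2.18 ± 0.72, limma adjusted p = 0.023), and 0.863% of all tested genes were called lower. Scaled, its change of -3.02 did not pass (limma adjusted p = 0.066), and limma then called 0 of the 6 against 2.58% of all tested genes. Of the 6, 5 had an unadjusted p under 0.05 scaled, beside 3470 of the 15066 tested genes. Limma-voom called 0. The call of Mptx2 was lost without day 24 replicate 2, the library with the erythroid genes (adjusted p = 0.077), or day 42 replicate 1 (0.11). Itln1 had a change of -1.17 (adjusted p = 0.067), which passed without day 24 replicate 3 (-1.64, adjusted p = 0.037). Of the fate and granule genes 12 of 19 were called higher as deposited, with a median of 0.55, beside 48.5% of all tested genes called higher and a median of 0.53 over all of them; the smallest p was that of the surface glycoprotein Cd24a (1.87, adjusted p = 0.0036). Scaled, 1 of 19 was called, Pla2g2a, which fell by 1.29 (adjusted p = 0.041). The defensins had a median of -1.04 (-1.88 scaled) with 0 of 10 called.

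The proportion of the pentraxins differed between ages. The ratio of Mptx2 to Mptx1 within a library does not depend on scaling between libraries. At day 14 it was 0.604, 5.28 and 0.579 with the B6 dam and 1.12, 1.57 and 1.58 with the IgA -/- dam. At day 24 it was 11.6 and 166 with the B6 dam and 43.6, 41.8 and 35.8 with the IgA -/- dam. The values of the 2 ages did not overlap under either dam. At day 42 it was 109.5, 9.64 and 23.2 with the B6 dam and 2.21, 24.15 and 40.4 with the IgA -/- dam. Mptx1 rested on 8 to 158 reads per library at day 14 but on 1 to 20 at day 24 and 7 to 26 at day 42, and the ratio of 166 rests on 1 Mptx1 read. The longest transcripts of both genes were identical in 91.9% of aligned columns and shared 134 stretches of 50 bases (17.9% of those of Mptx1 and 17.99% of those of Mptx2), so reads from the shared stretches cannot be assigned to 1 of them; how the authors' counting treated these reads was not tested.

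**Figure D4:**
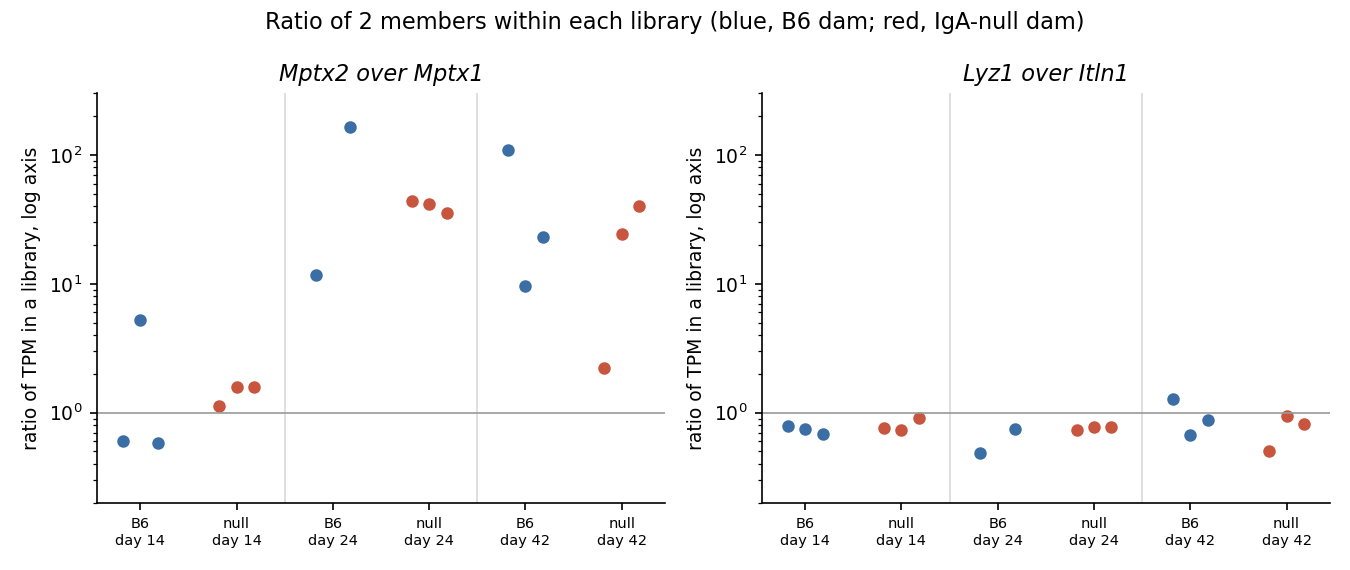
Ratio of TPM within each library (points; y axes, log scale) of Mptx2 to Mptx1 and of Lyz1 to Itln1, by nursing dam and day of life. The pentraxin ratio runs from 0.579 to 166 and is at most 5.28 at day 14, while the ratio of Lyz1 to Itln1 stays between 0.488 and 1.29.

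Lyz1 and Itln1 kept nearly the same proportion throughout. Their ratio was 0.488 to 1.29 over the 17 libraries, and Itln1 was above Lyz1 in 16 of 17, the exception being B6 dam day 42 replicate 1. Across the libraries log2(TPM + 1) of Lyz1 and Itln1 correlated at r = 0.98, and the deviations from the group means at r = 0.96. Lyz1 with Ang4 gave r = 0.84 and with Mptx2 r = 0.80, whereas Mptx1 with Mptx2 gave r = 0.10 and -0.09 within groups. Without B6 dam day 42 replicate 1 these were 0.97 (within groups 0.93), 0.77, 0.72 and 0.17 (within groups -0.29). They are descriptions over 17 or 16 libraries that share groups, and they carry no p. The genes most like each member, among all tested and leaving out the members, were then ranked by r, as deposited unless stated. For Lyz1 and Itln1 they were Gm15292, which RefSeq names Defa40 (r = 0.96 and 0.94), Defa24 (0.95 and 0.93) and Defa30 (0.91 for both). For Ang4 they were Gm15292 (0.83), Defa-ps7 (0.82) and Defa29 (0.81), and for Mptx2 AY761184 (0.90), Defa29 (0.87) and Gm14851 (0.86). Mmp7 ranked closest to Zg16 (0.90) and Muc2 (0.84), goblet cell products, and to the phospholipase Pla2g2f (0.83); scaled, its closest was the goblet cell peptide Spink4 (0.92). Mptx1 ranked closest to the muscarinic receptor Chrm3 (0.94), Ints6l (0.94) and the lectin Reg4 (0.94). Scaled, its closest were Chrm3 (0.91), Hist1h2bk (0.90) and Ints6l (0.89). Chrm3 and Ints6l were low, at 0.282 to 2.33 and 0.034 to 1.87 TPM as deposited. Without B6 dam day 42 replicate 1 the same 3 genes led as deposited for Lyz1, Itln1, Mmp7 and Mptx1, 2 of the 3 for Mptx2 and 1 of the 3 for Ang4.

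By level as deposited, the B6 dam at day 42 had the highest mean of Lyz1, Ang4, Itln1 and Mptx2 (551 ± 593, 90.0 ± 100, 494 ± 411 and 53.9 ± 67.3 TPM, with SD and n = 3). That place rested on replicate 1, without which the means were 215 ± 154, 32.6 ± 18.7, 264 ± 151 and 15.3 ± 11.3 TPM (n = 2), below those of the IgA -/- dam at days 14 and 24 in all 4 genes. Mmp7 was also highest there (36.5 ± 7.39 TPM), with or without replicate 1 (34.3 ± 9.01 TPM without it). Scaled, the B6 dam at day 42 kept the highest mean in Lyz1 and Ang4. The IgA -/- dam at day 24 was then above it in Itln1 (815 against 563 TPM), Mptx2 (83.3 against 65.4) and Mmp7 (58.3 against 37.6). Next as deposited came the IgA -/- dam at days 24 and 14 (Lyz1 360 ± 175 and 356 ± 105 TPM, Itln1 474 ± 227 and 445 ± 132 TPM). Their ranges overlapped each other in Lyz1, Ang4 and Itln1, but scaled, day 24 was above day 14 without overlap in all 3. As deposited, the B6 dam at day 24 was lowest in Lyz1 (73.8 ± 11.5 TPM, n = 2), Itln1 (122 ± 17.3 TPM) and Ang4 (6.43 ± 3.61 TPM). It was apart from the next group in Lyz1 and Itln1 but not in Ang4. Scaled, it overlapped the B6 dam at day 14 in all 3 genes. Mptx2 was lowest with the B6 dam at day 14 (2.65 ± 1.82 TPM). Mptx1 was highest with the IgA -/- dam at day 14 (16.0 ± 5.47 TPM), apart from all other groups, which overlapped with their neighbours in the order. Between genes, Itln1 and Lyz1 ranked 27th to 301st of the 15066 tested genes by mean TPM in a group, a level per transcript length, while Mptx1 ranked 2451st at its highest and 14016th at its lowest.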

How the data were processed

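Per the labels' protocols, the sorted cells were flash frozen and their RNA was extracted once every group had been acquired; cDNA came from a SMART-seq v4 low-input kit and libraries from Nextera XT. The authors deposited TPM per gene symbol, without scaling between libraries; per the submitters' processing notes, the build was mm10 and the tools included Bowtie2, Subread and DESeq2, whose roles and versions are not given in the sources used here.

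TPM times the exon length of the gene in GENCODE M21 gave whole multiples of 1 read for 93.5% of values above 0. The tolerance was 0.01 reads or a relative 1e-04, and 49721 symbols had a length. Only the whole values were summed for each library, so its full depth may be higher. For the B6 and IgA -/- dam these sums were 11314290 to 13640830 and 8482355 to 11343208 reads at day 14. At day 24 they were 17428278 to 18317895 and 11687545 to 14132577. At day 42 they were 15300735 to 17550917 and 15521455 to 16968343. These reads carry no molecular identifiers.

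A gene entered the test when 2 or more libraries reached 1 TPM. The test was limma 3.58.1 (R 4.3.3) with an intensity trend, fitted once to log2(TPM + 1) of the 17 libraries, with Benjamini-Hochberg adjusted p under 0.05 over all tested genes as the call. Fold changes on this scale understate the change of low genes. The test was tested on simulated data. Alternatives were other pseudocounts and filters, median-of-ratios scaling, leaving the 50 highest and mitochondrial genes out of the total, only the compared groups, a replicate block, limma-voom on recovered reads, and leaving out each library. Sequences were aligned with Biopython 1.88 in Python 3.11.15.

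The members, the gene lists and the tests were chosen with earlier results of these data known. Named besides the members are the 3 genes of highest Pearson r with each, up to 3 genes of smallest p per Paneth list, and check genes; the library that stands apart was picked, and the levels and correlations without it were computed, after the values were seen.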

Additional observations from a re-analysis of the deposited data

Results flagged for a closer look

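The difference between dams changed with age by the moderated F test in Mptx1 (limma adjusted p = 0.031) and Mmp7 (adjusted p = 0.047) as deposited. Scaled, the adjusted p of the same test was 0.13 for Mptx1 and 0.20 for Mmp7.

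After scaling, the libraries of day 24 and day 42 were apart in opposite directions under the dams for 2 of the 6 members. The share of all tested genes apart in this way was not counted. Mmp7 was higher at day 42 under the B6 dam (log2 fold change 0.65) and lower under the IgA -/- dam (-1.06). Mptx1 was likewise higher under the B6 dam (0.68) and lower under the IgA -/- dam (-0.77). None of these 4 changes passed limma's test, and the difference between the dams over this interval alone was not tested. As deposited, the groups of the IgA -/- dam overlapped in both genes.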

How the results depend on the processing

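Counts of called members under the alternatives were as follows, each with the share of all genes then tested that were called in either direction. At day 14 (3 called, 8.68%), the groups fitted alone gave 6 (20.1%) and limma-voom gave 1 (3.09%). A pseudocount of 5 (16.5%), no filter (2.75%), scaling (2.93%) and leaving out mitochondrial and the 50 highest genes (2.00%) gave 2. At day 24 (0 called, 0.0265%), a filter of 5 TPM gave 3 (12.2%). From day 14 to 24 with the B6 dam (2 called, 8.61%), a pseudocount of 5 (8.32%), no filter (2.69%) and the groups fitted alone (0.458%) gave 0. The filter of 5 TPM (10.6%), scaling (13.8%) and the replicate block (5.61%) gave 1. With the IgA -/- dam (1 called, 83.8%), scaling (16.6%) and leaving out mitochondrial and the 50 highest genes (16.5%) gave 2. So did the groups alone (81.8%) and limma-voom (12.5%). From day 24 to 42 with the IgA -/- dam (1 called, 49.3%), no filter (15.6%), scaling (2.58%) and limma-voom (2.10%) gave 0. The filter of 5 TPM gave 2 (65.4%). For the difference between ages (2 called, 1.75%), a pseudocount of 0.1 (1.07%) and the replicate block (0.385%) gave 1. No filter (0.257%), scaling (0.139%), leaving out the highest genes (0%) and limma-voom (0.0446%) gave 0. The filter of 5 TPM gave 3 (4.9%). Same-numbered libraries did not deviate together (r = -0.21 to 0.11), so the replicate block is no pairing.

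Fits without 1 library, as deposited or scaled, were read where 2 or more libraries stayed in each group. At day 14 they gave 1 to 3 called members, beside 0.544% to 8.41% of all tested genes. At day 24 they gave 0, beside 0% to 14.6%. From day 14 to 24 they gave 0 to 2 with the B6 dam (4.61% to 10.5%) and 1 to 2 with the IgA -/- dam (7.97% to 84.0%). From day 24 to 42 with the IgA -/- dam they gave 0 to 2 (0.279% to 58.4%). For the difference between ages they gave 0 to 5 (0% to 26.1%).

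Directions turned for Lyz1, Ang4 and Itln1 from day 14 to 24 with the IgA -/- dam: 1.41, 1.36 and 1.49 scaled, 1.21, 1.18 and 1.28 without the highest genes, and 1.41, 1.36 and 1.48 with limma-voom. Without 1 library these ran from -0.41 to 0.38, -0.47 to 0.38 and -0.32 to 0.46 as deposited. Scaled, they ran from 1.05 to 1.75, 0.96 to 1.73 and 1.14 to 1.83. Mmp7 ran from -0.26 to 0.48 as deposited and from 1.16 to 1.81 scaled. Turned values also occurred without 1 library for Ang4 (-1.33 to 0.44), Itln1 (-0.81 to 0.0053) and Lyz1 (-1.09 to 0.017) from day 14 to 24 with the B6 dam, for Mmp7 from day 24 to 42 with the IgA -/- dam (-1.31 to 0.16), and at day 42 for Ang4 (-1.68 to 0.20) and Mptx1 (-0.47 to 0.017). Apart from the changes that follow from fewer genes or libraries, the cause was not tested. Of 1098 values of single members under alternatives, 906 kept direction and side of the threshold. Few reads limit Mptx1 at days 24 and 42.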
